A study of Mus musculus with 24 samples.

Results

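The genes described here encode the subunits and dedicated assembly factors of the mouse proteasome. They were taken as the genes with a symbol of Psma, Psmb, Psmc, Psmd, Psme, Psmf or Psmg followed by a number that had 10 or more counts in at least 4 of 24 lens libraries. The rule was met by 47 of 48 such symbols, among 15626 of 24415 rows that met the same count rule. The gene left out was Psma8, the testis form of an alpha subunit, with at most 3 counts in any library. Expression was measured by RNA sequencing of total RNA from lens epithelia and from cortical fiber cells of C57BL/6 mice, in 6 groups of 4 libraries. The control groups were wild type (WT) and untreated. The mildly glutathione-deficient groups were LEGSKO and untreated, and the severely deficient groups were LEGSKO treated with buthionine sulfoximine (LEGSKO+BSO). No group carried BSO without the LEGSKO genotype.

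LEGSKO is known as a knockout of Gclc, the catalytic subunit of the enzyme that starts glutathione synthesis, made with a Cre recombinase restricted to the lens. BSO inhibits that same enzyme. The labels give no age, sex, dose, length of treatment or batch, and do not tie any library to an animal, so p-values measure only the spread between these libraries, which may be technical.

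The proteasome is the barrel-shaped protease that degrades proteins tagged with ubiquitin. Its 20S core is built from rings of alpha subunits, which form the gate, and rings of beta subunits, some of which carry the catalytic sites. The 19S cap is made of a base, with the ATPase ring that unfolds substrates, and a lid that removes ubiquitin. Fiber cells of the lens degrade their organelles as they mature and keep the proteins made before that point for life, and the ubiquitin-proteasome system has been studied there for its role in protein quality control and in the response to oxidative stress.

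Total counts ran from 19.3 to 33.9 M in epithelia and from 22.4 to 46.6 M in fibers, where M stands for mega, and LEGSKO+BSO fibers were sequenced most deeply (39.0 to 46.6 M). Crystallins, the main lens proteins, took 7.05% to 14.7% of counts in epithelia. In fibers they took 27.6% to 50.1%, and library 1 of WT fibers stood apart at 50.1% against 27.6% to 29.6% in the other libraries of its group. The summed level of 5 epithelial markers, without Cryaa, was 1820 to 1940 in WT epithelia and 118 to 175 in WT fibers, in counts per M of scaled library size (CPM, with the TMM scaling of edgeR). That of 10 fiber markers was 5620 to 6050 in WT epithelia and 55100 to 93800 in WT fibers, so these markers matched the labels, with fiber markers also present in epithelia. The sixth gene of the epithelial list, the crystallin Cryaa, went the other way (37500 to 48200 against 108000 to 284000 CPM). Markers of other tissues were higher in WT epithelia than in WT fibers for retina (43.9 to 238 against 3.06 to 5.42 CPM) and for the list of cornea and conjunctiva (63.8 to 93.3 against 4.06 to 7.23), whose sum was higher in LEGSKO (136 to 142) and LEGSKO+BSO epithelia (110 to 131). Of the 5 genes of that list, the keratins Krt15 and Krt19 carried the sum, and Krt5, Krt12 and Krt14 together had at most 0.768 CPM in any epithelial library. The retina sum was 13.7 to 185 CPM in LEGSKO and 9.38 to 71.8 in LEGSKO+BSO epithelia. In the fibers of these lenses it was 5.09 to 45.4 and 4.19 to 5.06 CPM. The part of these markers in the results was not tested. Gclc, the targeted gene, had 53.1 ± 8.58, 39.8 ± 7.17 and 57.7 ± 12.3 CPM in epithelia of WT, LEGSKO and LEGSKO+BSO lenses (SD, n = 4), and 130 ± 46.0, 112 ± 9.37 and 110 ± 7.33 in their fibers. None of these differences from WT passed the test (adjusted p of 0.224 or more, edgeR's quasi-likelihood test, adjusted by Benjamini-Hochberg), and since the sources used here do not name the deleted exons, the count of the whole gene does not check the genotype.

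The 6 promoters below are shown because their genes carry the main results: Psmc5 and Psmd4, the base subunits with the largest tissue differences, Psmb5, a catalytic subunit, Psma2 and Psme3, which were lower in LEGSKO+BSO fibers, and Psme1, which was lower in fibers than in epithelia. Each line gives the 100 bases before the annotated start, 5′ to 3′ on the strand of the gene, from RefSeq on GRCm38.p6. Capitals mark matches, on either strand, to TGACNNNGC (the core of the antioxidant response element, bound by the NRF2 and NRF1 factors), CCAAT (the box bound by NF-Y) or GAAA-NN-GAAA, without the hyphens (searched as GAAA, any 2 bases and GAAA again; a core of the elements bound by interferon regulatory factors). The windows lie at chr11:106256085-106256184 (plus strand, Psmc5), chr3:95042615-95042714 (minus, Psmd4), chr14:54617996-54618095 (minus, Psmb5), chr13:14613142-14613241 (plus, Psma2), chr11:101316113-101316212 (plus, Psme3) and chr14:55578394-55578493 (plus, Psme1).
Psmc5: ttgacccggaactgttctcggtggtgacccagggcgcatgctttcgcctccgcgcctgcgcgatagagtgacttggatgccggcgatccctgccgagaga
Psmd4: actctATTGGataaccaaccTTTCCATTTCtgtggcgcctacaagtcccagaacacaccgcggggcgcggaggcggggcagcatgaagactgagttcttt
Psmb5: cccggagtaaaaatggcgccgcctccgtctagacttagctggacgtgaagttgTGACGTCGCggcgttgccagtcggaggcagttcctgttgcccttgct
Psma2: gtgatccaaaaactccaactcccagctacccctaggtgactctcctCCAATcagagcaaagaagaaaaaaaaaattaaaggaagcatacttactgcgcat
Psme3: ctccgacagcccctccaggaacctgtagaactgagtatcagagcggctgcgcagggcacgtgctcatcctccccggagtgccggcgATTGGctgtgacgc
Psme1: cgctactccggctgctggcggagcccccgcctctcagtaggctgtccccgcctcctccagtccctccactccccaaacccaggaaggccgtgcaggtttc

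Windows from 250 bases before to 50 bases after a start were at hand for 40 of the 47 genes (43 windows). TGACNNNGC was present in 6 of the 43 (14.0%), in Psmb5, Psmb6, Psmc6, Psmd9, Psmd12 and Psme4, against 12.4% of 32851 windows of all genes. CCAAT was present in 14 (32.6%) against 37.4% of all windows. GAAA-NN-GAAA was present in 5 (11.6%), in Psmb3, Psmd4, Psmd9, Psme1 and Psmg4, against 3.44% of all windows. The match of Psme1 lay after the start, and so outside the stretch printed above. These matches are descriptions of letters and no test was made of them.

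The study compared conditions within a tissue. The levels of the subunits in epithelia and fibers are described first, since they set the scale on which the conditions are read. In WT epithelia the 31 core subunits (the alpha and beta rings, base and lid) ranged 5.51-fold in CPM per kb of transcript, from 11.2 for Psmd11, a lid scaffold subunit, to 61.6 for Psmc5, an ATPase of the base, with a median of 27.1. In WT fibers they ranged 17.8-fold, from 22.6 for Psmd11 to 403 for Psmc5, with a median of 67.7. In the deficient lenses the range was 6.18-fold for LEGSKO and 5.99-fold for LEGSKO+BSO epithelia, and 23.1-fold and 24.2-fold for the matching fibers. In those fibers the lowest core subunit was Psma2, an alpha subunit, at 19.6 and 17.3 CPM per kb. These ranks depend on the transcript length used, 2911 bases for Psma2 and 2848 for Psmd11. In plain CPM the beta subunit Psmb2 lay below Psma2, at 31.7 to 41.8 against 51.1 to 64.5 in LEGSKO fibers. In LEGSKO+BSO fibers it had 31.8 to 35.5 against 43.5 to 54.2.

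In WT fibers the levels per kb were ordered Psmc5 (403 ± 9.49), Psmd4 (272 ± 6.55), Psmc3 (212 ± 24.4), Psmb6 (174 ± 11.6), Psmb7 (164 ± 27.7) and Psmc1 (162 ± 24.3; SD, n = 4). The last 3 of these lay within each other's spread. Psmc3 and Psmc1 are further ATPases of the base, and Psmd4 is the base subunit that binds ubiquitin chains. Psmb6 and Psmb7 are catalytic beta subunits. In WT epithelia the order was Psmc5 (61.6 ± 4.29), Psmb7 (52.5 ± 4.58), Psmb6 (50.3 ± 3.78) and Psmc3 (47.6 ± 2.87), with the last 3 within each other's spread, and Psme1, a subunit of the PA28 activator, followed among the next genes at 45.8 ± 0.970. Psmd4, the second gene in fibers, had 43.9 CPM per kb in WT epithelia.

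The 19S base took a larger share of the proteasome transcripts in fibers than in epithelia. Its 9 subunits made up 29.4% ± 1.29 of the summed level per kb of all 47 genes in WT epithelia and 44.1% ± 1.32 in WT fibers (SD, n = 4). LEGSKO lenses had 29.2% ± 0.994 and 45.1% ± 0.321 and LEGSKO+BSO lenses 30.3% ± 0.844 and 45.4% ± 0.344, and the lowest fiber library (42.2%) lay above the highest epithelial library (31.5%). A share within a library does not depend on how libraries are scaled.

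Psmc5 alone went from 5.73% ± 0.490 of the sum in WT epithelia to 12.4% ± 1.19 in WT fibers, and Psmd4 from 4.08% ± 0.425 to 8.37% ± 0.566. Not every base subunit gained, and Psmd2 and Psmc6 took a smaller share in WT fibers than in WT epithelia. The alpha ring also took a smaller share in fibers, going from 17.4% ± 0.691 to 11.8% ± 0.244. So did the group of activators and the inhibitor, from 10.1% ± 0.347 to 4.61% ± 0.216, in which Psme1 went from 4.25% ± 0.212 to 0.784% ± 0.116. The beta ring kept nearly the same share, 24.8% ± 0.781 and 24.3% ± 1.24, with overlapping libraries. The lid had 13.6% ± 0.245 and 11.9% ± 0.436. The 20S assembly chaperones had 2.45% ± 0.304 and 1.48% ± 0.149, and the base assembly chaperones 1.61% ± 0.107 and 1.58% ± 0.0836. The inducible beta subunits Psmb8, Psmb9 and Psmb10, grouped with the thymus-specific Psmb11, had 0.589% ± 0.0833 and 0.195% ± 0.00571. Psmb11 made up most of that group's level, with 14.0 to 16.3 CPM of 18.7 ± 1.59 in WT epithelia. In WT fibers it had 12.5 to 14.9 of 17.8 ± 1.14.

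**Figure D1:**
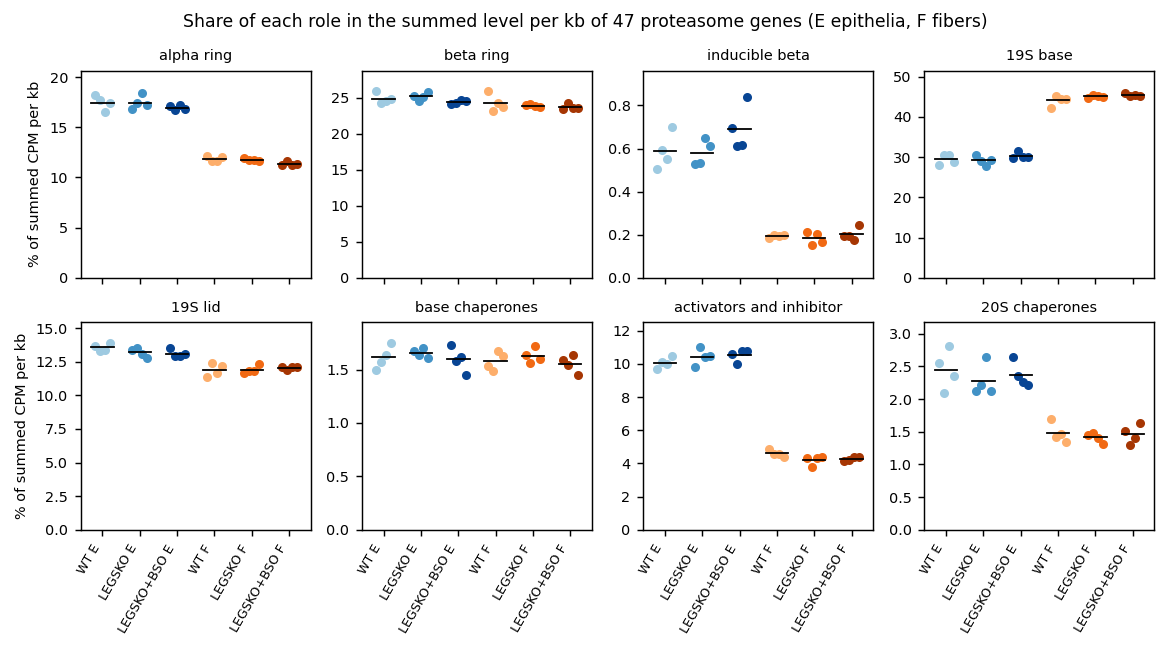
Share of each role, in percent, in the summed CPM per kb of the 47 proteasome genes, with 1 point per library for the 6 groups and a bar at the mean. The panel of inducible beta subunits also holds the thymus-specific Psmb11. The base lies between 27.9% and 31.5% in all epithelial libraries and between 42.2% and 45.9% in all fiber libraries, while the alpha ring and the activators are lower in fibers.

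Each gene was then compared between tissues within a condition, with all 24 libraries in 1 fit. In WT, 41 of the 47 genes were higher in fibers and 3 were lower at an adjusted p below 0.05 (edgeR's quasi-likelihood test, adjusted by Benjamini-Hochberg over 15560 genes). The 3 lower genes were Psme1, Psmb8 and Psmb9. Of all genes tested 37.0% were higher and 39.4% lower. The median log2 difference of the proteasome genes was 1.17, against -0.09 for all genes, and 34 of the 47 lay above the 75th percentile of all genes. In LEGSKO 39 were higher and 3 lower (36.8% and 39.0% of all genes), with a median of 1.01. In LEGSKO+BSO 40 were higher and 4 lower (38.1% and 40.8%), with a median of 1.18.

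The split depends on the scale, and the crystallin shares given above moved with the tissue. With total counts alone as the scale, 18 of the genes were higher and 17 lower in fibers for WT, 18 and 20 for LEGSKO, and 23 and 16 for LEGSKO+BSO, while 12.7% of all genes were higher and 73.7% lower for WT (13.5% and 72.1% for LEGSKO, 14.8% and 71.0% for LEGSKO+BSO). Of the 41 genes higher in WT fibers with TMM, 18 then had a difference below 0, and 11 of them were called lower. The median of the proteasome genes in WT was then -0.01 against -1.25 for all genes. The distance of the members' median from that of all genes was 1.26 with TMM and 1.24 with total counts for WT, 1.09 and 1.08 for LEGSKO, and 1.27 with either scale for LEGSKO+BSO. As bulk RNA was measured, a different number of cells of a type and a different amount of RNA per cell cannot be told apart.

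Under both scales 18 genes were higher in fibers in all 3 conditions. They were 7 subunits of the base (Psmc1, Psmc2, Psmc3, Psmc4, Psmc5, Psmd1 and Psmd4), 4 of the beta ring (Psmb1, Psmb4, Psmb6 and Psmb7), 3 of the lid (Psmd7, Psmd12 and Psmd14), the alpha subunit Psma6, the activator Psme3 and the assembly chaperones Psmd10 and Psmg1. With TMM alone the number was 39. The share of all genes that met these joint rules was not counted. It cannot exceed 12.7% for both scales or 36.8% for TMM alone, the lowest shares called higher in a single condition.

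**Figure D2:**
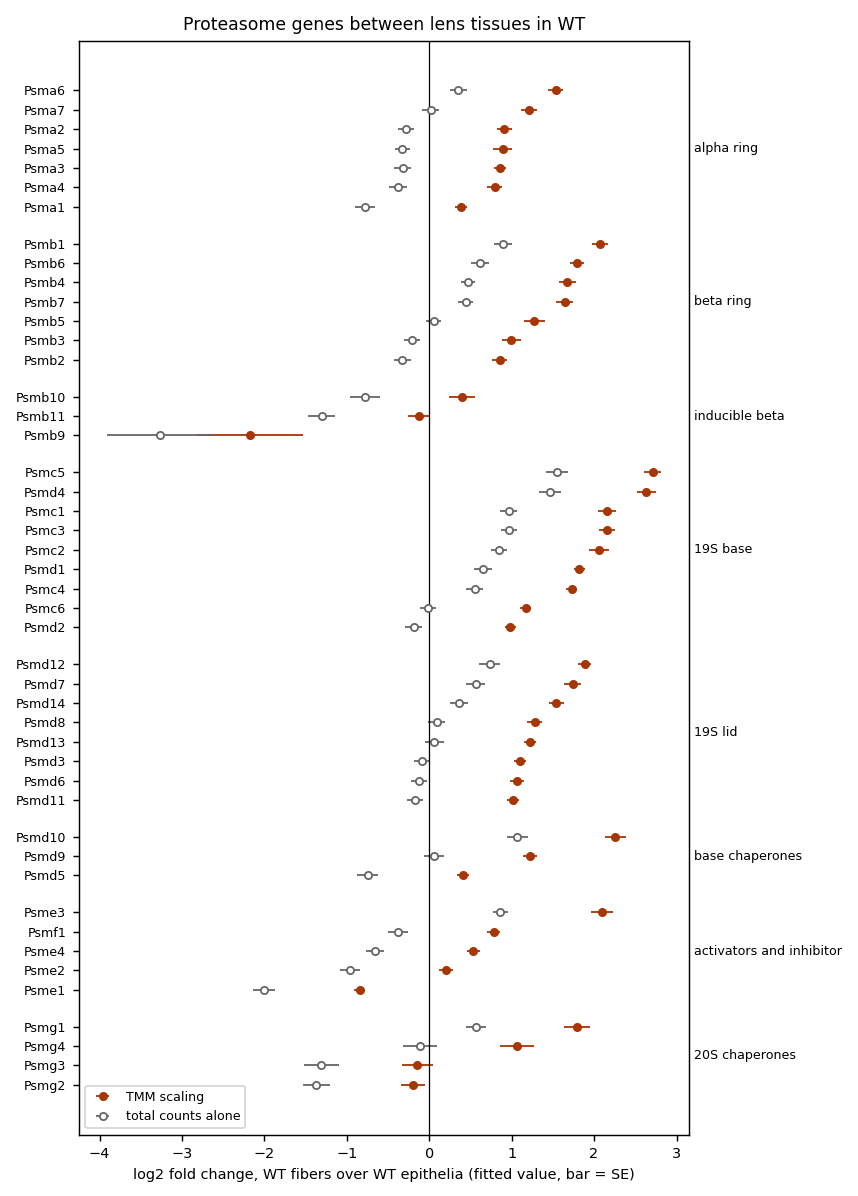
Log2 difference between WT fibers and WT epithelia for each proteasome gene, grouped by role, with its SE. Filled points are scaled by TMM and hollow points by total counts alone, which moves the genes down; Psmc5 and Psmd4 are highest with either scale (2.71 and 2.63 with TMM), Psme1 lies below 0 with either (-0.85 with TMM), and Psmb8 is not drawn because WT fibers had 0 counts of it.

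In the base, Psmc5 (Entrez 19184, chr11:106256185-106263112), the ATPase also called Rpt6, had 77.4, 85.1, 86.7 and 75.2 CPM in the 4 WT epithelial libraries and 518, 532, 547 and 524 in the WT fiber libraries. The groups did not overlap, as for 67.5% of all genes tested, and the log2 difference was 2.71 ± 0.10 (SE; adjusted p = 3.11e-17, edgeR's quasi-likelihood test). Psmd4 (Entrez 19185, chr3:95032688-95042614), also called Rpn10, had 55.0, 64.8, 60.3 and 53.9 CPM in WT epithelia and 372, 359, 368 and 352 in WT fibers. The log2 difference was 2.63 ± 0.12 (adjusted p = 2.76e-16, edgeR). On the TMM scale the fiber libraries of both genes lay close together, the one with 50.1% of its counts in crystallins included. In raw counts that library had 6333 of Psmc5 against 9862 to 11484 in the others of its group. It had 4543 of Psmd4 against 6634 to 7748. Its total of 27.7 M lay within their 25.7 to 30.0 M.

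All 9 base subunits were higher in WT fibers with TMM. Psmc1 and Psmc3 had log2 differences of 2.16 each and Psmc2 of 2.06. Psmd1, a scaffold subunit, had 277 ± 7.61 CPM against 78.5 ± 2.40 (log2 1.82). The smallest differences were those of Psmc6, an ATPase, with 77.4 ± 7.53 against 34.3 ± 0.948 CPM (1.17), and Psmd2, the other scaffold (0.99; SD, n = 4). On the scale of total counts 7 of the 9 were higher and none was lower, against 12.7% and 73.7% of all genes.

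The 3 base assembly chaperones, which leave before the cap is complete, were also higher with TMM. Psmd10, also called gankyrin, had the widest difference, with 46.3 ± 5.61 CPM in WT fibers against 9.63 ± 1.19 in WT epithelia (log2 2.26 ± 0.13, adjusted p = 3.68e-14, edgeR). Psmd9 had a log2 difference of 1.22 and Psmd5 of 0.41. By total counts, 1 of the 3 was higher and 1 lower (12.7% and 73.7% of all genes).

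All 8 lid subunits were higher in WT fibers with TMM, with log2 differences from 1.01 for Psmd11 to 1.89 for Psmd12 (142 ± 8.66 against 38.4 ± 3.27 CPM). Psmd14, the deubiquitinase of the lid, had 77.8 ± 6.15 against 26.7 ± 0.935 CPM (log2 1.54). Psmd6 had 63.1 ± 7.34 against 30.2 ± 2.35 CPM (1.06). When scaled by total counts, 3 of the 8 were higher and none lower (12.7% and 73.7% of all genes).

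In the beta ring all 7 subunits were higher with TMM, with log2 differences from 0.85 for Psmb2 to 2.07 for Psmb1. Psmb5, with chymotrypsin-like activity, had 35.2, 30.2, 27.2 and 29.6 CPM in WT epithelia and 104, 64.4, 66.8 and 62.2 in WT fibers (log2 1.28 ± 0.13, adjusted p = 1.32e-09, edgeR). Psmb6, with caspase-like activity, had 44.1, 37.0, 38.9 and 40.5 against 151, 129, 142 and 135 CPM (1.79 ± 0.08, adjusted p = 1.02e-15, edgeR). Psmb7, with trypsin-like activity, had 67.8, 60.2, 60.5 and 54.9 against 238, 168, 176 and 178 CPM (1.64 ± 0.10, adjusted p = 2.74e-13, edgeR). None of the 3 catalytic subunits overlapped between tissues, which was also so for 43 of the 47 members and 67.5% of all genes tested. Library 1 of WT fibers, the one with the large crystallin share, was the highest in each on the TMM scale. With total counts alone 4 of the 7 were higher and 1 lower (12.7% and 73.7% of all genes).

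The alpha ring showed the smallest differences among the rings and caps. All 7 subunits were higher in WT fibers with TMM, from Psma1 (log2 0.39 ± 0.08; 43.1 ± 2.86 against 33.0 ± 2.27 CPM) to Psma6 (1.54 ± 0.09; 110 ± 10.1 against 38.0 ± 3.94 CPM), with a median of 0.89. With total counts alone Psma6 was higher and 5 of the 7 were lower, a share near the 73.7% of all genes that were lower. The direction for most of the alpha ring thus flips with the scale. Its median with total counts was -0.32, against -1.25 for all genes.

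Among the activators the PA28 genes separated. PA28 is a ring that caps the core without ATP. Its alpha and beta chains, Psme1 and Psme2, are known for their induction by interferon, and its gamma chain, Psme3, forms a ring of its own in the nucleus. Psme1 (Entrez 19186, chr14:55578494-55581527) had 50.9, 49.5, 52.1 and 51.1 CPM in WT epithelia and 27.2, 32.2, 27.8 and 25.9 in WT fibers. It was lower in fibers with either scale, by a log2 difference of -0.85 ± 0.07 with TMM (adjusted p = 3.35e-11, edgeR), and also in LEGSKO (-1.04) and LEGSKO+BSO (-0.89).

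Psme3 (Entrez 19192, chr11:101316213-101323537) went the other way, with 42.7, 40.3, 36.7 and 36.3 CPM in WT epithelia and 239, 132, 155 and 140 in WT fibers (log2 2.09 ± 0.13, adjusted p = 3.25e-13, edgeR). Its differences were 1.63 in LEGSKO and 1.72 in LEGSKO+BSO. Psme2 had 28.5, 27.2, 25.3 and 29.5 CPM in WT epithelia and 32.9, 32.4, 32.4 and 30.0 in WT fibers. Its log2 difference of 0.21 ± 0.08 passed the test with TMM (adjusted p = 0.0281, edgeR) but was -0.04 with upper-quartile scaling and -0.96 with total counts alone. It also lost its call without any of WT epithelial libraries 2 and 3 or WT fiber libraries 1, 2 and 3 (adjusted p up to 0.0960). The count of Psme2 is uncertain because its near-identical copy Psme2b held 14635 counts over all libraries against 19622 for Psme2.

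Psme4, the PA200 activator, had 124 ± 13.1 CPM in WT fibers against 85.8 ± 6.20 in WT epithelia (log2 0.53), and Psmf1, the proteasome inhibitor PI31, 40.7 ± 0.783 against 23.6 ± 0.433 (0.78). Both passed with TMM. With total counts alone 4 of the 5 genes of this group were lower, near the 73.7% of all genes, and Psme3 alone was higher. Of the 4 chaperones of 20S assembly, Psmg1 had 25.8 ± 7.73 against 7.39 ± 1.20 CPM (log2 1.79) and Psmg4 6.64 ± 1.46 against 3.15 ± 1.06 (1.07). Their partners Psmg2, with a log2 difference of -0.19 (adjusted p = 0.230, edgeR), and Psmg3, with -0.15 (2.98 ± 0.401 against 3.29 ± 0.856 CPM, adjusted p = 0.486, edgeR), did not pass the test with TMM. With total counts alone Psmg1 was higher, Psmg2 (-1.37) and Psmg3 (-1.31) were lower and Psmg4 (-0.11) was not called. The median of all genes on that scale was -1.25.

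Of the subunits that replace the catalytic ones in immune cells, Psmb8 and Psmb9 were near the detection limit. Psmb8, Psmb9 and Psmb10 are the interferon-induced counterparts of Psmb5, Psmb6 and Psmb7. Psmb8 (chr17:34198195-34201454) had 15, 6, 3 and 12 counts in the epithelia of WT lenses, 19, 5, 9 and 9 in those of LEGSKO and 12, 16, 13 and 22 in those of LEGSKO+BSO. Among fibers it had 0 counts in all 4 WT libraries and all 4 LEGSKO libraries, and 5, 5, 3 and 4 in the LEGSKO+BSO libraries. With 3 counts over the group as the floor, Psmb8 was at least 6.65-fold lower in WT fibers than in WT epithelia and at least 7.17-fold lower in LEGSKO (TMM scale; counting error only).

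The 17 counts of Psmb8 in LEGSKO+BSO fibers came from the deepest libraries. They correspond to 0.121, 0.107, 0.0703 and 0.102 per M of total counts, while 3 counts in a single library of the other fiber groups would be up to 0.134 per M. Summed over a group, the floor was 0.0272 per M in WT and 0.0309 in LEGSKO fibers, below the LEGSKO+BSO group in total. The filter on low counts left Psmb8 and Psmb9 untested in fibers. In a fit without the filter Psmb8 had an adjusted p of 0.102 for LEGSKO+BSO against WT and 0.374 against LEGSKO (edgeR's quasi-likelihood test), so neither difference passed. The summed immune cell markers moved with these counts. The sum was 1.25 to 2.50 CPM in WT fibers (7 of 12 markers detected, with Aif1, C1qa, C1qb, C1qc and Cd74 at 0), 1.17 to 2.16 in LEGSKO fibers (10 of 12, with C1qc and Cd74 at 0) and 5.19 to 7.64 in LEGSKO+BSO fibers (12 of 12). Lyz2 carried most of that difference (0.388 to 0.9 CPM in WT and 3.78 to 5.51 in LEGSKO+BSO fibers), and the other 11 markers overlapped (0.501 to 1.90 and 1.41 to 2.13). Their part in the result was not tested.

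Psmb9 (chr17:34182030-34187330) had 13, 15, 8 and 14 counts in WT epithelia and 0, 0, 2 and 4 in WT fibers, a ratio of 4.62 (95% exact counting interval 1.98 to 13.2, TMM scale). In LEGSKO it had 22, 12, 20 and 25 counts in epithelia and 1 count over the 4 fiber libraries (ratio 40.5, interval 7.06 to 1620). In LEGSKO+BSO it had 21, 19, 16 and 14 against 3, 3, 1 and 3 (5.67, interval 2.91 to 12.3). The epithelial counts were thus above the fiber counts in every condition, at a depth of at most 25 counts a library. Immune marker sums were also higher in some epithelial libraries, at 2.24 to 11.4 CPM for WT, 1.73 to 4.72 for LEGSKO and 2.87 to 19.1 for LEGSKO+BSO, and their part was not tested.

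Psmb10 had 2.50, 2.81, 3.14 and 3.77 CPM in WT epithelia and 4.50, 3.57, 3.99 and 4.11 in WT fibers. The groups overlapped, the log2 difference of 0.40 ± 0.16 passed with TMM (adjusted p = 0.0244, edgeR) and was -0.78 with total counts alone. That call was lost without WT epithelial library 1 or 2 or WT fiber library 1 (adjusted p up to 0.0862). Set against its constitutive counterpart in the same library, which needs no scaling, Psmb10 was 4.52% ± 1.17 of Psmb7 per kb in WT epithelia and 1.90% ± 0.166 in WT fibers, without overlap. Psmb8 was 0.490% ± 0.268 of Psmb5 in WT epithelia and at 0 in WT fibers, and Psmb9 was 0.578% ± 0.185 of Psmb6 in WT epithelia and 0.0335% ± 0.0422 in WT fibers (SD, n = 4).

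The same ratios across conditions in epithelia overlapped. Psmb8 over Psmb5 was 0.574% ± 0.296 in LEGSKO and 0.839% ± 0.126 in LEGSKO+BSO, Psmb9 over Psmb6 0.841% ± 0.181 and 0.774% ± 0.215, and Psmb10 over Psmb7 4.70% ± 0.316 and 5.73% ± 0.926. Psmb11 is known as the thymus-specific beta subunit. It lies beside Psmb5 on chromosome 14, at chr14:54625310-54629556 against chr14:54614120-54617995. It had 14.1, 15.6, 14.0 and 16.3 CPM in WT epithelia and 14.9, 14.4, 13.1 and 12.5 in WT fibers, which overlapped (log2 -0.13, adjusted p = 0.363, edgeR). With total counts alone its WT difference was -1.30 and passed (adjusted p = 3.04e-08, edgeR), near the median of -1.25 for all genes. In LEGSKO+BSO Psmb11 was lower in fibers with TMM (-0.34, adjusted p = 0.0140, edgeR), a call lost without epithelial library 4 or fiber library 3 of that condition (adjusted p up to 0.0991).

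**Figure D3:**
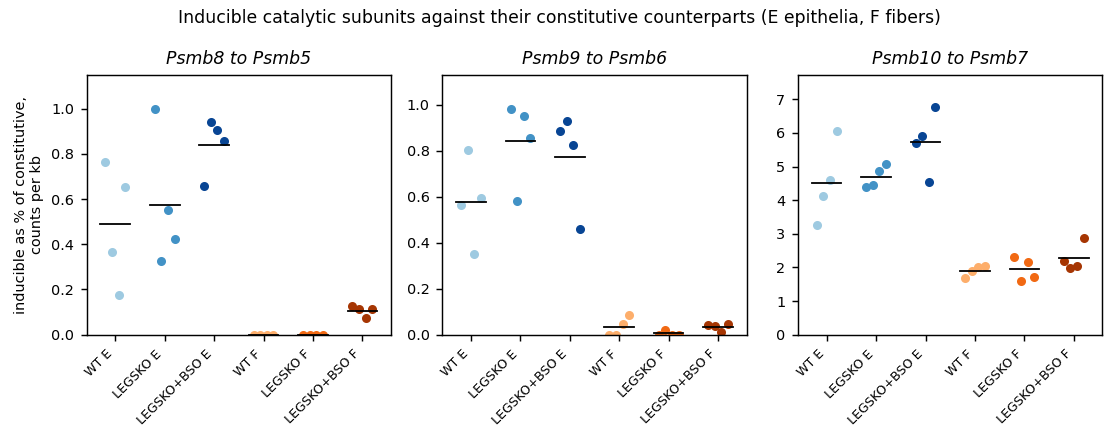
Level per kb of Psmb8, Psmb9 and Psmb10 as a percentage of Psmb5, Psmb6 and Psmb7 in the same library, with 1 point per library for the 6 groups. All fiber libraries lie below all epithelial libraries of the same condition for each pair, and Psmb8 is at 0 in the WT and LEGSKO fibers and at 0.0719% to 0.127% of Psmb5 in LEGSKO+BSO fibers.

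Within a tissue the proteasome genes differed little between conditions. The comparisons of LEGSKO and of LEGSKO+BSO with WT in a tissue share the WT libraries. The summed level of the 47 genes was 1693 ± 74.4, 1803 ± 82.8 and 1620 ± 112 CPM in epithelia of WT, LEGSKO and LEGSKO+BSO lenses (SD, n = 4). Their fibers had 5016 ± 438, 5036 ± 478 and 4761 ± 180. As a plain share of all counts, the genes took 0.246% ± 0.00889, 0.264% ± 0.00746 and 0.243% ± 0.00968 in epithelia, and 0.321% ± 0.0476, 0.341% ± 0.00950 and 0.343% ± 0.00402 in fibers.

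In LEGSKO against WT epithelia 0 of 47 proteasome genes passed an adjusted p of 0.05 (edgeR's quasi-likelihood test, adjusted by Benjamini-Hochberg), against 0.842% of all genes. At an unadjusted p below 0.05 there were 4, all higher (8.51% of the members against 14.1% of all genes). The log2 differences of the 45 genes other than Psmb8 and Psmb9 ran from -0.25 to 0.23, and 37 of the 47 were above 0, with a median of 0.07 against -0.01 for all genes. The highest of the 45 was Psme1 and the lowest was Psmg3 (-0.25, adjusted p = 0.588). Psmb9 had the highest fitted value of the 47 (0.62, adjusted p = 0.484), at the counts given above.

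Psme1 had the smallest p in that comparison, with 59.0, 60.1, 59.0 and 63.4 CPM in LEGSKO epithelia against 50.9, 49.5, 52.1 and 51.1 in WT. The groups did not overlap, which was so for 3 of the 47 members and 8.58% of all genes. The log2 difference of 0.23 ± 0.05 missed the threshold with edgeR (adjusted p = 0.0564) and passed it with DESeq2 (adjusted p = 0.00241). It was the 1 proteasome gene that DESeq2 called there, against 3.26% of all genes. In LEGSKO+BSO epithelia Psme1 had 51.2, 51.3, 52.2 and 49.4 CPM, within 0.01 log2 of WT (adjusted p = 0.971, edgeR).

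In LEGSKO+BSO against WT epithelia 0 of 47 genes passed (1.17% of all genes), with 0 by DESeq2 as well and 6 at an unadjusted p below 0.05, of which 5 were lower (12.8% of the members against 14.8% of all genes). The 45 genes ran from -0.23 for Psmd6, a lid subunit (adjusted p = 0.183, edgeR), to 0.19 for Psme4 (adjusted p = 0.193), and Psmb8, at the counts given above, had 0.59 (adjusted p = 0.628). In LEGSKO+BSO against LEGSKO epithelia 0 passed with edgeR (0.722% of all genes), and 2 with DESeq2 (5.59% of all genes). At an unadjusted p below 0.05 there were 16, all lower (34.0% of the members against 19.3% of all genes), and 42 of the 47 were at or below 0, with a median of -0.15 against 0.00.

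The pair that DESeq2 called was Psme1 (log2 -0.22 ± 0.05; adjusted p = 0.0653 with edgeR and 0.00374 with DESeq2) and Psmd6. Epithelia of LEGSKO lenses had 32.4, 32.8, 33.8 and 31.1 CPM of Psmd6 and those of LEGSKO+BSO lenses 28.5, 27.0, 24.6 and 22.8, with WT between 27.6 and 32.9. Its log2 difference was -0.32 ± 0.08 (adjusted p = 0.0769 with edgeR and 0.0152 with DESeq2). Without library 2 of LEGSKO+BSO epithelia, edgeR called 2 other genes lower, Psmd14 (-0.36, adjusted p = 0.0361) and Psmd9 (-0.36, adjusted p = 0.0486), which had -0.27 and -0.29 with all libraries.

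In fibers 45 of the 47 genes could be tested. In LEGSKO against WT fibers 0 passed (edgeR, 1.64% of all genes; also 0 with DESeq2), with 4 at an unadjusted p below 0.05 (1 higher, 3 lower; 8.89% of the members against 15% of all genes). The log2 differences ran from -0.41 for Psme3 (adjusted p = 0.180) to 0.21 for Psmd12 (164 ± 12.1 against 142 ± 8.66 CPM, adjusted p = 0.164, edgeR), and 43 of the 45 lay within 0.25 of 0. In LEGSKO+BSO against LEGSKO fibers 0 passed (edgeR, 0.0298% of all genes; also 0 with DESeq2), with 4 at an unadjusted p below 0.05, all lower (8.89% against 10.5% of all genes). The extremes were Psmd14 (-0.25, adjusted p = 0.320) and Psmb11 (0.08).

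In LEGSKO+BSO against WT fibers 3 of 45 genes fell, Psma2, Psmc6 and Psme3, and none rose. That was 6.67% of the members, against 5.52% of all genes called in either direction and 2.47% called lower. The log2 differences of the 45 genes ran from -0.52 to 0.14, with a median of -0.09 against -0.01 for all genes. At an unadjusted p below 0.05 there were 6, all lower (13.3% of the members against 21.5% of all genes).

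Psma2 (Entrez 19166, chr13:14613242-14625673), an alpha subunit, had 84.2, 60.8, 65.6 and 69.0 CPM in WT fibers and 52.4, 54.2, 51.4 and 43.5 in LEGSKO+BSO fibers, without overlap. Groups without overlap in that comparison were seen for 6 of the 45 members and 14.4% of all genes. In LEGSKO fibers Psma2 had 51.1, 64.5, 57.8 and 54.3 CPM. Against WT the fall in LEGSKO+BSO was -0.47 ± 0.10 on the log2 scale (adjusted p = 0.0182, edgeR's quasi-likelihood test), and the difference in LEGSKO was -0.30 (adjusted p = 0.180). As a share of the summed proteasome level per kb, Psma2 was 0.676% to 0.780% in WT fibers, 0.584% to 0.606% in LEGSKO fibers and 0.509% to 0.580% in LEGSKO+BSO fibers, so the WT libraries stood above both others on a measure that needs no scaling.

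Psmc6 (Entrez 67089, chr14:45329823-45349074) had 88.3, 71.1, 74.0 and 76.3 CPM in WT fibers, 66.3, 72.9, 65.1 and 63.3 in LEGSKO fibers and 65.0, 60.9, 67.3 and 62.6 in LEGSKO+BSO fibers. LEGSKO+BSO did not overlap WT, as for 14.4% of all genes, and the log2 difference was -0.27 ± 0.07 (adjusted p = 0.0450, edgeR). Psme3 had 239, 132, 155 and 140 CPM in WT fibers, 115, 132, 122 and 132 in LEGSKO fibers and 112, 124, 121 and 107 in LEGSKO+BSO fibers. The difference between LEGSKO+BSO and WT was -0.52 ± 0.14 (adjusted p = 0.0469, edgeR), and the WT value of 239 belongs to library 1, the one with the large crystallin share.

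The share of Psmc6 in the summed proteasome level per kb was at least 1.03% in each WT fiber library, and ran from 0.861% to 0.991% in LEGSKO fibers and from 0.850% to 0.955% in LEGSKO+BSO fibers. That of Psme3 was 1.60% to 2.42%, 1.30% to 1.58% and 1.33% to 1.45% in the same order. For both genes the WT libraries lay above those of the other 2 groups, in the same counts that gave their calls.

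These 3 calls were close to the threshold with edgeR, and DESeq2 made them with adjusted p of 0.00115 (Psma2), 0.00974 (Psme3) and 0.0119 (Psmc6). With the replicate number as a block in edgeR, Psma2 passed (adjusted p = 0.0335) and Psme3 (0.0803) and Psmc6 (0.0713) did not. No pairing of samples by those numbers was shown. With total counts alone as the scale, an alternative chosen after seeing the data, none passed (against 1.29% of all genes) and the values were -0.29 for Psma2 (adjusted p = 0.317, edgeR), -0.31 for Psme3 (0.224) and -0.11 for Psmc6 (0.755). Without library 1 of WT fibers Psma2 (-0.37, adjusted p = 0.0133) and Psme3 (-0.30, 0.0202) passed and Psmc6 (-0.21, 0.0570) did not. Psma2 lost its call only without library 4 of LEGSKO+BSO fibers (0.0598). Psme3 lost it without WT library 3 or any of the 4 LEGSKO+BSO libraries (up to 0.126), and Psmc6 without any of the 8 (up to 0.119).

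**Figure D4:**
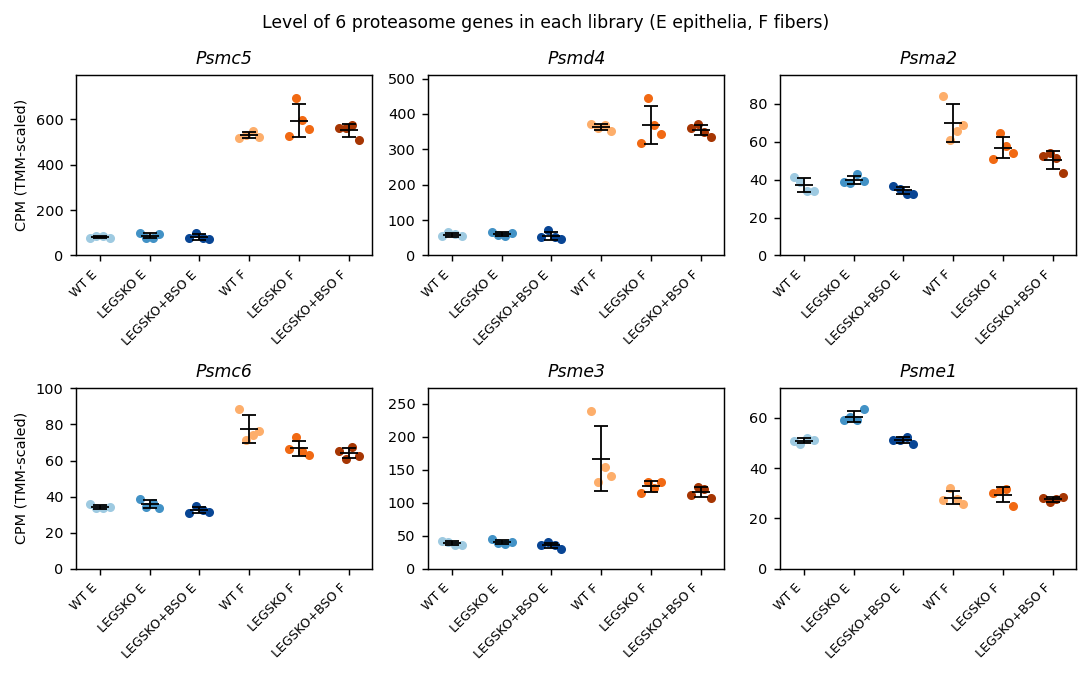
CPM (TMM scale) of Psmc5, Psmd4, Psma2, Psmc6, Psme3 and Psme1 in each of the 24 libraries, with the mean ± SD of each group. Psmc5 and Psmd4 are several-fold higher in fibers, Psme1 is lower in fibers, and Psma2 and Psmc6 lie lower in LEGSKO+BSO than in WT fibers, where WT library 1 is highest for Psma2, Psmc6 and Psme3 (84.2, 88.3 and 239 CPM).

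Whether a condition acted differently in the tissues was tested as an interaction. None of the 47 genes passed, for LEGSKO (0.103% of all genes passed) or for LEGSKO+BSO (0.276%), with edgeR or DESeq2. At an unadjusted p below 0.05 there were 6 for LEGSKO (12.8% of the members against 9.06% of all genes) and 5 for LEGSKO+BSO (10.6% against 13.6%). For Psma2 the interaction was -0.39 for LEGSKO (adjusted p = 0.317, edgeR) and -0.36 for LEGSKO+BSO (adjusted p = 0.234), so the lower level of Psma2 in deficient fibers was not shown to differ from the response in epithelia.

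**Figure D5:**
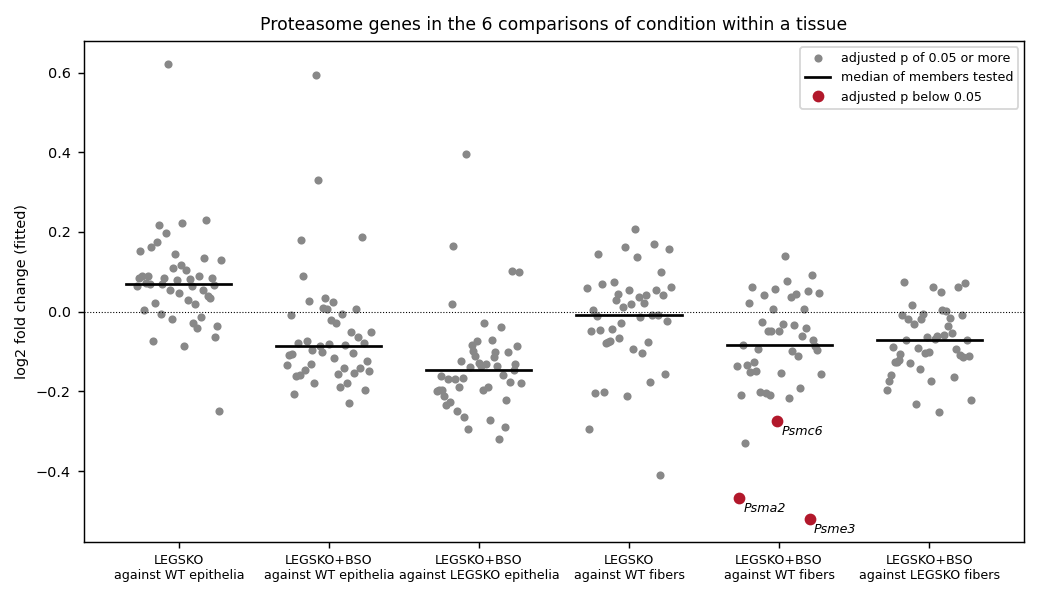
Log2 differences of the proteasome genes in the 6 comparisons of conditions within a tissue, 1 point per gene, with the median as a line and genes with an adjusted p below 0.05 in red. Only LEGSKO+BSO against WT fibers has red points (Psma2, Psmc6 and Psme3, all below 0, and 0 of them with total counts alone), and the median is lowest, at -0.15, in LEGSKO+BSO against LEGSKO epithelia.

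Genes that work with the proteasome were read from 3 lists. Of 15 tested partners and regulators, 10 were higher and 1 lower in WT fibers than in WT epithelia with TMM (37.0% and 39.4% of all genes), and 4 were higher and 8 lower with total counts alone (12.7% and 73.7% of all genes). The ubiquitin receptor Adrm1 (log2 2.26), the cap-bound deubiquitinase Uchl5 (1.97), the lid protein Sem1 (1.93) and the 20S maturation factor Pomp (1.35) were among the higher with TMM. The transcription factor Nfe2l2 (NRF2) was the one that was lower (-0.64), and Nfe2l1 (NRF1), which drives proteasome genes when the proteasome is inhibited, had 0.39. Of 15 genes of the ubiquitin list 13 were higher and 0 lower with TMM, among them Rps27a (2.73) and Ubb (2.13), which encode ubiquitin, and the receptor Sqstm1 (1.88). Total counts gave 6 higher and 7 lower, against the same 12.7% and 73.7% of all genes.

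Genes of antigen presentation by MHC class I, which the inducible subunits serve, were mostly lower with TMM, with 8 of 11 lower and 2 higher in WT fibers (39.4% and 37.0% of all genes). With total counts 9 were lower and 1 higher, a share lower that is near the 73.7% of all genes. B2m, the light chain of class I molecules, had a log2 difference of -4.81, with 0.587 CPM in WT fibers against 14.5 in WT epithelia, and the peptide transporter gene Tap1 had -2.85. Tap2 (1.01) and Nlrc5 (6.78; 76.3 against 0.678 CPM) were the 2 that were higher with TMM. Nlrc5 is known as an activator of class I genes.

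In epithelia none of these genes passed in any comparison of conditions, with edgeR. In fibers Nfe2l1 fell in LEGSKO against WT (-0.26, adjusted p = 0.0466, edgeR; -0.29, 0.00962, without library 1 of WT fibers). With total counts alone it had -0.20 and did not pass (0.999). Zfand2a, a heat- and arsenite-induced proteasome partner, rose in LEGSKO+BSO against WT (0.26, adjusted p = 0.0357, edgeR) but did not pass with total counts alone (0.40, adjusted p = 0.314) or without library 1 of WT fibers (0.21, 0.0531). In the same comparison H2-K1 (-0.45, adjusted p = 0.0355, edgeR) and Tap2 (-0.69, 0.00583) of the class I list fell. Both also passed without library 1 of WT fibers (0.0195 and 0.00334) and did not with total counts alone (0.533 and 0.0984). These settings, too, were chosen after seeing the data.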

How the data were processed

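RNA of 24 libraries was sequenced, and the authors deposited raw gene counts in a single table of 24415 Entrez identifiers. TopHat, DESeq, bcl2fastq and CASAVA 1.8 are named by the submitters' processing notes, with build mm10 (GRCm38). The sources used here name no counting tool, annotation, strand setting or library kit, so reads of overlapping genes cannot be told apart. This touches Psmd9 (25.5% of its exonic bases overlap another gene), Psmb8 (14.7%), Psmb5 (12.1%), Psmb7 (11.8%) and Psmd13 (10.1%). Symbols came from a RefSeq table (24334 identifiers matched, and the 81 unmatched held 0.914% of counts and stayed in the tests).

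Tests were made on these counts in R 4.3.3 with edgeR 4.0.16 (TMM scaling, filterByExpr with a minimum count of 10 and total of 15, two-sided quasi-likelihood F tests, Benjamini-Hochberg adjustment over all genes tested, threshold 0.05). Conditions were compared within a tissue (12 libraries in 3 groups; 15089 genes in epithelia, 13436 in fibers). Tissues and interactions were tested over all 24 libraries (15560 genes), a comparison the submitters did not make. The biological coefficient of variation was 14.2%, 12.8% and 13.7%. CPM use TMM factors over all 24 libraries, and levels per kb divide by the longest principal transcript of GENCODE. Alternatives were DESeq2 1.42.0, other scalings, no filter, crystallins left out, the replicate number as a block and leaving out each library. No 2 libraries were duplicates (chi-square of 5.27 to 345 per degree of freedom). The procedure was tested on simulated data.

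The proteasome genes, their roles and the lists of other genes were chosen with earlier results of these data known, and some list genes are not reported here. Values are given for every gene called in a comparison of conditions or an interaction, the catalytic and inducible beta subunits, Psme1 and Psme2, the largest tissue differences, the extremes of each comparison of conditions, and the highest and lowest levels. Intervals and floors of 3 counts cover counting error only.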

Additional observations from a re-analysis of the deposited data

Results flagged for a closer look

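In 14 of 204 groups of 4 libraries (6.86%), the highest or lowest library lay far from the other libraries of its group, which chance gives in about 1 of 20 groups. Library 1 of WT fibers, the one with 50.1% of its counts in crystallins, was the highest for 7 of these values: Psmb5 at 104 CPM (62.2 to 66.8 in the others), Psmb7 at 238 (168 to 178), Psmd6 at 74.1 (58.8 to 59.8), Psmc1 at 316 (237 to 241), Psmc3 at 406 (318 to 333), Psmc2 at 266 (177 to 188) and the summed level of all 47 genes at 5670 CPM (4750 to 4880). The TMM factor of that library was the lowest of all, at 0.4418.

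Among the other values, Psmg3 was low in library 3 of WT fibers, at 2.38 CPM (3.11 to 3.24 in the others). Psma1 was high in library 2 of LEGSKO fibers, at 52.1 CPM (41.9 to 43.3). In the same library the share of activators and the inhibitor was low, at 3.81% (4.32% to 4.36%), and Psmb9 had its single count of that group, 0.0639 CPM. The share of the lid was high in library 4 of LEGSKO fibers, at 12.3% (11.7% to 11.8%). In LEGSKO+BSO fibers Psmb9 was low in library 3, at 0.0329 CPM (0.0918 to 0.102), and the summed level was low in library 4, at 4490 CPM (4830 to 4880).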

How the results depend on the processing

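The direction of the tissue difference depended on the scaling for some genes. With total counts alone 18 genes were higher and 17 lower in fibers for WT, 18 and 20 for LEGSKO, and 23 and 16 for LEGSKO+BSO. Of the genes higher with TMM, 18, 16 and 14 then had a difference below 0. Among the genes followed under each setting, the log2 difference turned to -0.78 (Psmb10), -0.96 (Psme2), -0.78 (Psma1), -0.28 (Psma2) and -0.013 (Psmc6) in WT. In LEGSKO it turned to -0.60 (Psma2), -0.81 (Psmb10), -0.97 (Psme2), -0.75 (Psma1), -0.63 (Psmd5) and -0.21 (Psmc6), and in LEGSKO+BSO to -0.78 (Psmb10), -0.74 (Psme2), -0.68 (Psma1), -0.51 (Psma2) and -0.079 (Psmc6). Upper-quartile scaling gave 5 lower genes in WT and 5 in LEGSKO, with Psme2 at -0.044 in WT. Crystallin shares moved with the TMM factors, 0.4418 to 0.7502 in fibers and 1.417 to 1.536 in epithelia.

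Between conditions, DESeq2 called 1 gene in LEGSKO against WT epithelia and 2 in LEGSKO+BSO against LEGSKO epithelia. In LEGSKO+BSO against WT fibers total counts alone gave 0. The replicate block gave 1 (Psma2, adjusted p = 0.0335) and changed no other count by over 1.5 times. Same-numbered libraries deviated with correlations of -0.211 to 0.225 over 60 pairs of groups, 5 of them over 0.1. Of these pairs 17 were best with their own number. For epithelia and fibers of the same condition the correlations ran from -0.0524 to 0.208. Whether same-numbered libraries of those tissues came from the same lenses could not be told, and the main tests used no pairing. Leaving out 1 library gave 0 to 2 genes in LEGSKO+BSO against WT fibers and 0 to 2 in LEGSKO+BSO against LEGSKO epithelia. The cause of these shifts was not tested. Depth limits Psmb8 and Psmb9, with at most 25 counts a library.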
